A study of Mus musculus with 12 samples.

Results

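The comparison described here is between 2 brown fat depots of the mouse, the supraclavicular pad of the neck (scBAT) and the interscapular pad between the shoulder blades (iBAT). Its members are the 3 scBAT and 3 iBAT libraries, 6 of the 12 RNA sequencing libraries of the study, chosen by their labelled depot. The other 6 come from inguinal (iWAT) and epididymal (eWAT) white fat and enter only where a white level is given. All mice were male C57BL/6, 8 weeks old, untreated and housed at ambient temperature, with no transgene or deletion named, so both brown depots differ in the labels by position alone. The labels do not say whether the libraries of a depot come from separate animals or from pools, and p-values therefore measure the spread between these samples.

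Brown adipocytes burn fat to make heat, through an uncoupling protein in the inner membrane of their mitochondria. Interscapular brown fat descends largely from the somites of the trunk, whereas brown fat of the mouse neck was described as the counterpart of a depot known from people. Cells keep a record of their position along the body in the transcription factors they express, above all those of the Hox clusters, whose genes lie on the chromosome in the order in which they are used from head to tail.

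Total counts ran from 17159401 to 19890543 reads per library. Levels are given in CPM, read counts divided by the size of each library as scaled over these 6 libraries, and a difference is the log2 value of scBAT minus iBAT with its standard error (SE). A gene was called when edgeR's quasi-likelihood test, adjusted by Benjamini-Hochberg over all 13502 tested genes, gave p below 0.05, and each adjusted p below comes from that test unless another is named. Summed levels of 8 brown adipocyte markers were 4463 to 4987 CPM in iBAT and 3934 to 4967 CPM in scBAT, so the defining genes of the labelled tissue were present in each library. The libraries also held genes of neighbouring tissues. Summed levels of 15 salivary gland markers were 621, 1056 and 1374 CPM in iBAT libraries 1 to 3 against 9456, 16600 and 3159 CPM in scBAT libraries 1 to 3. Those of 20 skeletal muscle markers were 568, 810 and 2395 CPM against 7240, 2548 and 2121 CPM. iBAT library 3 and scBAT library 3 lay 0.384 apart (root mean square of log2 levels), as near as libraries of a single depot, which lay 0.291 to 0.434 apart.

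Of the tested genes, 154 were called (1.14%), 127 higher in scBAT (0.941%) and 27 lower (0.2%). At 2-fold or more, 76 were higher (0.563%) and 20 lower (0.148%). An unadjusted p below 0.05 in edgeR was reached by 1637 of the 13502 tested genes, in either direction. In all 154 the scBAT and iBAT libraries did not overlap, which held for 17.5% of tested genes, 9.79% with scBAT above and 7.68% with it below. With few libraries a depot, a small p nearly requires such separation, so it adds no evidence beyond the call. Among the genes with the largest differences were transcription factors of embryonic patterning: Tbx1, Lhx1 and Shox2 in scBAT, and Hoxc8, Zic1 and Zic4 in iBAT. The count depended on single libraries, with 69 calls without iBAT library 1, 35 without iBAT library 2, 68 without scBAT library 2 and 241 without scBAT library 3. No called gene changed direction in any of these fits. In each of the 6 fits that leave out a library, 24 of the higher and 11 of the lower genes remained called.

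**Figure D1:**
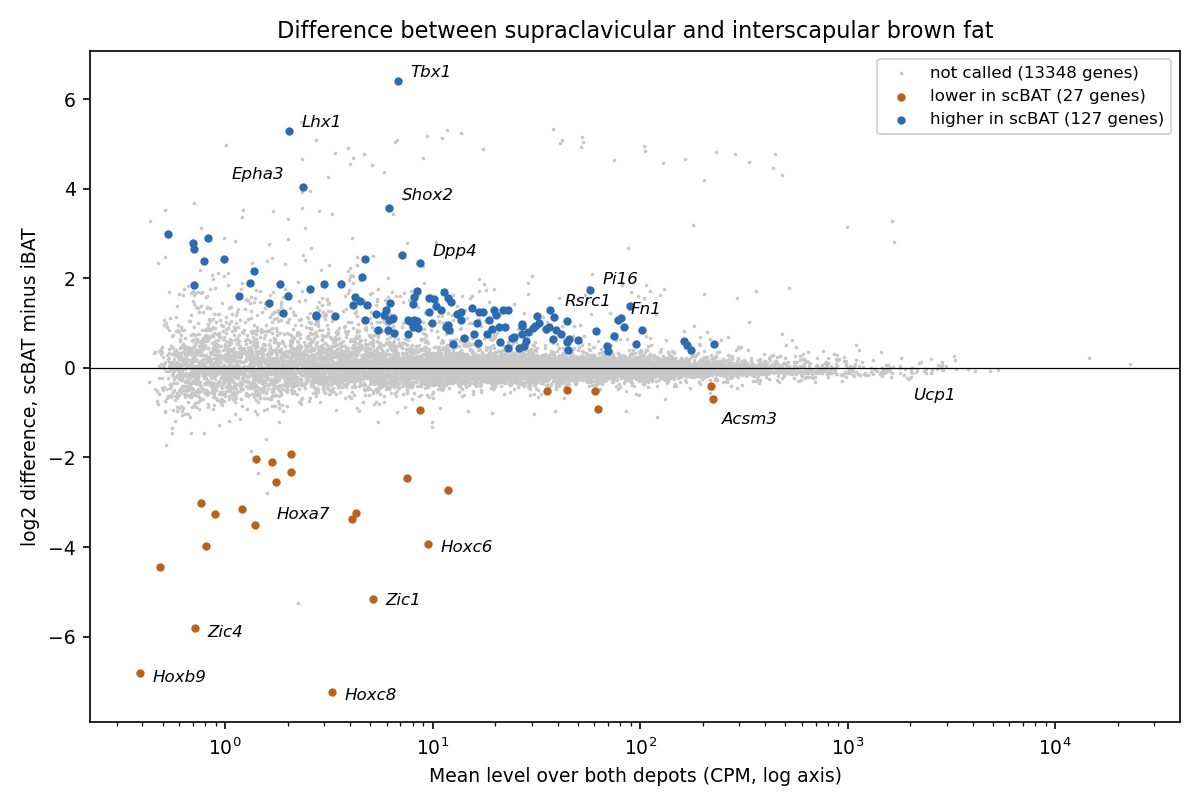
Each point is a tested gene, with its mean level over both depots (CPM, log axis) on the horizontal axis and the log2 difference of scBAT minus iBAT on the vertical axis. The 127 blue and 27 orange points were called, and grey points with large positive differences include the salivary gland genes, which varied between the scBAT libraries.

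The genes of the salivary and muscle lists are among the grey points. All 12 tested salivary markers had a higher mean in scBAT, by 2.81 to 5.08 on the log2 scale. None was called by edgeR or limma-voom, although all 12 had an unadjusted p below 0.05 in edgeR and all 12 were called by DESeq2. Their highest scBAT library exceeded the lowest by 4.02 to 59.2 times. Set against the iBAT mean, their median log2 difference was 2.07 in scBAT library 3 and 4.99 in scBAT libraries 1 and 2. In bulk tissue, fewer cells of a type and less RNA per cell cannot be told apart.

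**Figure D2:**
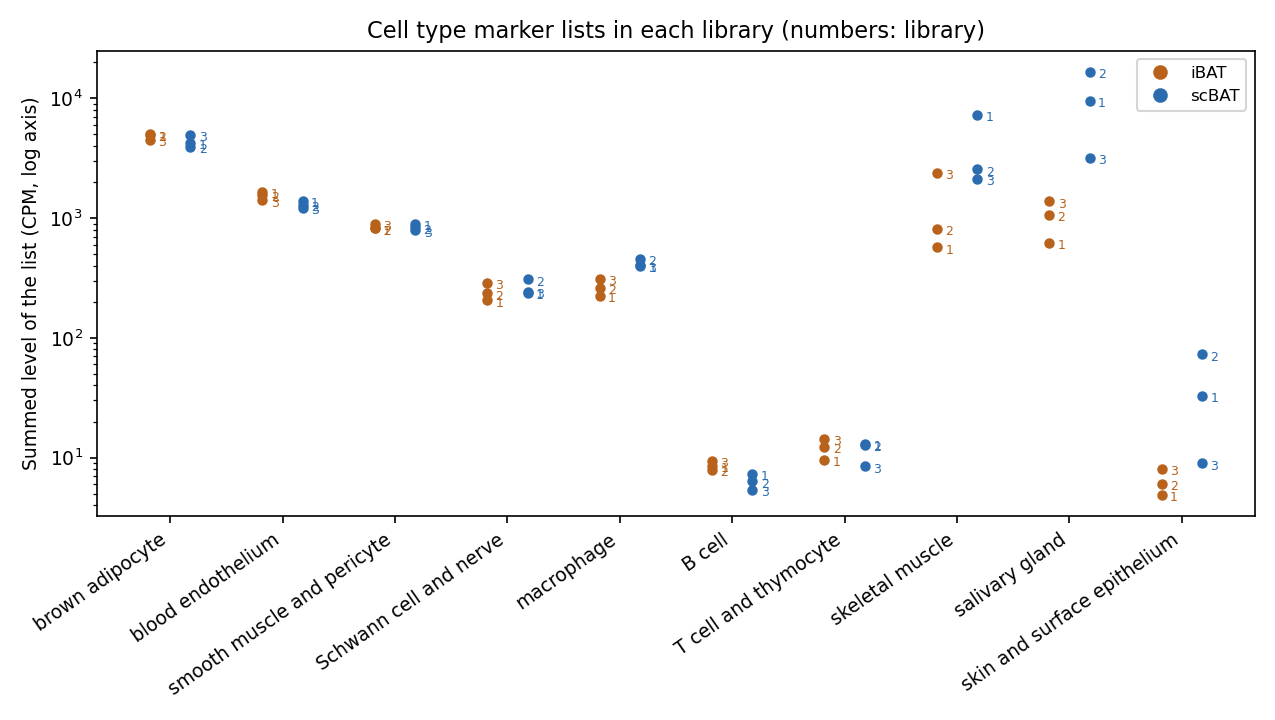
Summed levels of marker lists (CPM, log axis) are shown for each library, numbered 1 to 3, with iBAT in orange and scBAT in blue. Salivary gland markers ran from 621 to 1374 CPM in iBAT and from 3159 to 16600 CPM in scBAT, whereas brown adipocyte markers overlapped.

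Among the genes higher in scBAT, Tbx1 had the largest difference. Tbx1 encodes a T-box transcription factor of the pharyngeal arches that has also been used as a marker of beige adipocytes. Promoter sequences of Tbx1, Lhx1 and Shox2 are shown because these transcription factors are among the called genes with the largest positive differences. Each is the 250 bases before the RefSeq transcription start (GRCm38.p6), 5′ to 3′ on the minus strand, at chr16:18590672-18590921 for Tbx1, chr11:84525535-84525784 for Lhx1 and chr3:66981772-66982021 for Shox2. The Tbx1 window is that of the more upstream RefSeq start. Capitals mark a CCAAT box or a TATA box on either strand.
Tbx1: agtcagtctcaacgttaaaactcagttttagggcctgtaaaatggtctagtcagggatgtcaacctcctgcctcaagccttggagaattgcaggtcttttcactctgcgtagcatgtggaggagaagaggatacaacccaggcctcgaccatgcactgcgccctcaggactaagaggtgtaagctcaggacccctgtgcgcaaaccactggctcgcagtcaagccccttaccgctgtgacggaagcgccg
Lhx1: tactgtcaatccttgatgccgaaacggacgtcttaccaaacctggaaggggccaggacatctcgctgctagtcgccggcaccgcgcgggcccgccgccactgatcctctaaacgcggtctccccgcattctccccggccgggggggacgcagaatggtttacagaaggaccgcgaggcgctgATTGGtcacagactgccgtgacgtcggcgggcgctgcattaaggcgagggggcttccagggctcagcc
Shox2: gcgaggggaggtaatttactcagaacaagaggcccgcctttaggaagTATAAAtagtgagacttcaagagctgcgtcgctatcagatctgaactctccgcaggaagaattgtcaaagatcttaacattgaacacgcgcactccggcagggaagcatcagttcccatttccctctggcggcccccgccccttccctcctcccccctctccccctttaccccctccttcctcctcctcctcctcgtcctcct
Both strands of these windows were searched for the pair CG, the CCAAT box, the TATA box as TATAAA, the homeodomain palindrome as TAATTA and a T-box motif as GGTGTGA; none of these overlaps another in the 3 windows. The Lhx1 window held 26 CG pairs and 1 CCAAT, the Shox2 window 11 CG pairs and 1 TATAAA, and the Tbx1 window 10 CG pairs. The window of the other RefSeq start of Tbx1, at chr16:18588900-18589149, held 17 CG pairs and no match to the other motifs. Over 32851 promoter windows of the same length the median was 6 CG pairs, and the share with a match was 92.1% for CG, 33.8% for the CCAAT box, 12.4% for the TATA box, 4.84% for the homeodomain palindrome and 3.33% for the T-box motif. Neither the homeodomain palindrome nor the T-box motif occurs in these 3 windows.

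Tbx1 (chromosome 16, 18580979 to 18590671, GRCm38) stood at 0.0556, 0.115 and 0.292 CPM in iBAT libraries 1 to 3 and at 12.9, 14.5 and 12.9 CPM in scBAT. The scBAT libraries lay close together and far above every iBAT library. The log2 difference was 6.40 (SE 0.31, adjusted p = 0.000257), from 8 reads in iBAT and 740 in scBAT, an 88.4-fold ratio with a 95% exact counting interval of 44.6 to 205. On a scale set over all 12 libraries, the mean was 3.53 CPM in iWAT and 0.423 CPM in eWAT, against 14.85 CPM in scBAT. Its tested neighbours Gnb1l and Sept5, within 100 kb, were not called.

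Lhx1, a LIM homeobox factor of head and kidney development, was at 0.0556, 0.0573 and 0.175 CPM in iBAT and at 4.06, 4.37 and 3.49 CPM in scBAT. The depots were fully apart, with a log2 difference of 5.28 (SE 0.37, adjusted p = 0.00054). It had no read in iWAT and a mean of 0.0132 CPM in eWAT on the scale of 12 libraries. Neighbouring Aatf and Acaca, the latter encoding the first enzyme of fatty acid synthesis, were not called.

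Shox2, a homeobox factor of limb, palate and heart development, was at 0.835, 0.630 and 1.40 CPM in iBAT and at 11.8, 10.3 and 12.1 CPM in scBAT. The log2 difference was 3.57 (SE 0.25, adjusted p = 0.00054), with no overlap. Its neighbour Rsrc1, which encodes a splicing-related protein, starts on the other strand, and the annotated spans overlap by 382 bases. The Shox2 promoter window lies within the annotated span of Rsrc1. Rsrc1 was at 23.3, 23.4 and 25.4 CPM in iBAT against 51.6, 54.6 and 53.2 CPM in scBAT. That is a difference of 1.15 (SE 0.07, adjusted p = 0.00054). The strand setting of the counting is not given in the sources used here, so reads in the shared stretch could be assigned to either gene. Mlf1, Gfm1, Lxn and Rarres1, the other tested genes within 500 kb, were not called.

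Further genes higher in scBAT have roles in cell guidance and signalling. Epha3, an ephrin receptor, stood at 0.223, 0.286 and 0.292 CPM in iBAT against 5.69, 3.60 and 4.11 CPM in scBAT (log2 difference 4.03, SE 0.30, adjusted p = 0.000751). Nrn1, which encodes the secreted protein neuritin, was at 5.23, 5.96 and 4.91 CPM against 16.8, 17.1 and 17.9 CPM (1.69, SE 0.12, adjusted p = 0.00054). Dact2, a modulator of Wnt and TGF-beta signalling, was at 1.89, 1.20 and 1.34 CPM against 8.05, 7.81 and 8.16 CPM (2.43, SE 0.20, adjusted p = 0.00108). In all of them the depots were clearly separate. Rpl39l, a copy of a ribosomal protein gene whose reads can be shared with its near-identical relatives, was higher by 2.51 (SE 0.19, adjusted p = 0.000689). Akr1c13, an aldo-keto reductase with close paralogs, was higher by 1.59 (SE 0.16, adjusted p = 0.00288), and Aldh1a3, a retinoic acid synthesizing enzyme, by 1.5 (SE 0.15, adjusted p = 0.00362). Of 26 tested axon guidance and neurotrophic genes, Epha3, Nrn1 and Ntn1 were called higher (background 0.941% higher) and none lower. The median difference of the list was 0.16 against -0.01 over all tested genes. Ntn1, encoding netrin 1, lost its call without each of iBAT libraries 1 and 2 and scBAT libraries 1, 2 and 3, with adjusted p up to 0.171.

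Of 10 tested T-box and Zic factors, Tbx1 and Tbx18 were called higher and Zic1 and Zic4 lower (background 0.941% higher and 0.2% lower). Tbx18, a factor of heart and somite development, stood at 4.90, 4.35 and 3.86 CPM in iBAT against 11.2, 10.8 and 13.3 CPM in scBAT. Every scBAT library exceeded every iBAT library (log2 difference 1.42, SE 0.15, adjusted p = 0.00379, and 0.0526 without iBAT library 2). Tbx15, a factor of brown and subcutaneous adipocytes, was at 5.68, 4.93 and 10.6 CPM against 26.0, 12.4 and 11.4 CPM, without overlap, and was not called (1.23, SE 0.45, adjusted p = 0.373). Among 16 tested regional homeobox and paired factors, a list without Lhx1, Shox2 was the only call, against 4 without scBAT library 3. Of 11 tested beige adipocyte markers Tbx1 and Shox2 were higher and Hoxc8 lower, and of 11 tested markers of classical brown depots Zic1 alone was called. Meox2 and Lhx8, both used as markers of classical brown fat, did not pass the test, with differences of -0.15 (SE 0.16, adjusted p = 0.736) and -0.06 (SE 0.24, adjusted p = 0.942). Osr1 was the single call of 18 tested craniofacial and pharyngeal mesoderm factors, at 0.779, 0.859 and 1.34 CPM against 2.25, 3.39 and 3.49 CPM. Its adjusted p of 0.0443 rose to as much as 0.284 without iBAT library 1 or 2 or scBAT library 2 or 3.

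**Figure D3:**
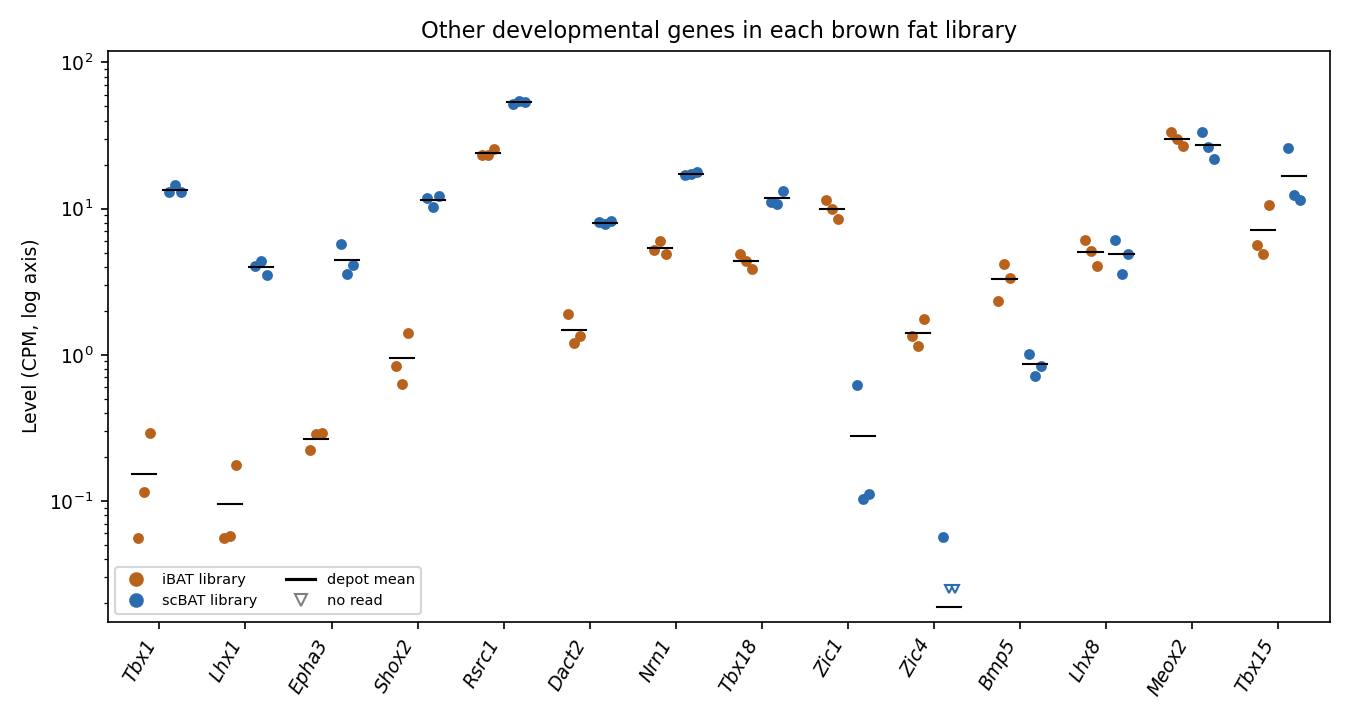
Levels of developmental genes (CPM, log axis) are shown for each iBAT library (orange) and scBAT library (blue), with black lines for depot means and open triangles for libraries with no read. Tbx1, Lhx1, Epha3 and Shox2 lie higher in scBAT and Zic1, Zic4 and Bmp5 lower, while Lhx8 and Meox2 overlap.

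The other direction was led by Zic and Hox genes, which made up 13 of the 27 genes lower in scBAT. Among all 13502 tested genes were Zic1, Zic4 and 8 Hoxa, 8 Hoxb, 4 Hoxc and 4 Hoxd genes. Zic1, a zinc finger factor of somite and neural development and a marker of classical interscapular brown fat, was at 11.5, 9.91 and 8.53 CPM in iBAT and 0.620, 0.103 and 0.113 CPM in scBAT. No scBAT library came near the iBAT libraries (log2 difference -5.15, SE 0.47, adjusted p = 0.00339, a 36.7-fold ratio with a counting interval of 22.1 to 66.1). Zic4 lies head to head with Zic1 on chromosome 9 and overlaps it on the other strand by 3398 bases. It was at 1.34, 1.15 and 1.75 CPM in iBAT and had 1 read in scBAT (-5.82, SE 0.64, adjusted p = 0.00434). With the strand setting unknown, reads of the overlap cannot be assigned to either. En1, a homeobox factor of the dermomyotome, was too low to be tested, at 0.779, 0.516 and 0.818 CPM against 0.113, 0 and 0.113 CPM.

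The Hox clusters differed by position within the cluster. In Hoxc all 4 tested genes were lower in scBAT (background 0.2% lower). Hoxc8 was at 5.95, 6.24 and 7.36 CPM in iBAT and at 0.0563, 0 and 0.0563 CPM in scBAT, which is 342 against 2 reads. The ratio was 179-fold, with a counting interval of 49.2 to 1480 (log2 difference -7.23, SE 0.40, adjusted p = 0.000352). Hoxc6 was at 18.2, 17.5 and 17.8 CPM against 0.957, 0.771 and 1.8 CPM (-3.92, SE 0.25, adjusted p = 0.00054). Hoxc5 and Hoxc4 differed by -2.72 (SE 0.24, adjusted p = 0.00235) and -2.46 (SE 0.19, adjusted p = 0.000919). The libraries of the depots did not overlap for any of the 4 genes. The annotated span of Hoxc5 contains Hoxc8 and Hoxc6 on the same strand, so reads there may have been given to either gene or left out. Hoxc9 to Hoxc13 were too low to be tested in brown fat, whereas Hoxc9 had a mean of 9.44 CPM in iWAT on the scale of 12 libraries.

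In Hoxa and Hoxb the difference began part of the way along. Hoxa2 to Hoxa5 were not called, with differences from -0.20 (Hoxa5, SE 0.11) to 0.27 (Hoxa2, SE 0.24). Hoxa5 stood at 38.1, 39.3 and 33.8 CPM in iBAT against 34.2, 27.8 and 34.7 CPM in scBAT, with overlap. The adjoining Hoxa6, Hoxa7 and Hoxa9 were lower, with log2 differences of -3.01, -3.38 and -3.26. They are 3 of 8 tested Hoxa genes (background 0.2% lower). Hoxa7 was at 7.96, 7.16 and 7.19 CPM against 0.451, 0.822 and 0.844 CPM (SE 0.24, adjusted p = 0.00054). Mira, a noncoding RNA whose annotated span lies inside that of Hoxa7, was at 9.13, 6.47 and 7.71 CPM against 0.789, 0.976 and 0.675 CPM (-3.24, SE 0.23, adjusted p = 0.00054). As the strand setting is unknown, reads of the shared stretch could belong to either, and the calls of Hoxa7 and Mira may not be separate. Without iBAT library 2 the calls of Hoxa6 (adjusted p = 0.0716) and Hoxa9 (0.0792) were lost.

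Hoxb2, Hoxb3 and Hoxb4 were not called and differed by at most 0.05 on the log2 scale, with SE from 0.12 to 0.16. Hoxb5 stood between, at 3.23, 1.89 and 2.45 CPM in iBAT against 2.08, 0.719 and 1.07 CPM in scBAT (-0.97, SE 0.39, adjusted p = 0.371). Hoxb6, Hoxb7, Hoxb8 and Hoxb9 were lower, 4 of 8 tested Hoxb genes (background 0.2% lower). Hoxb6 was at 2.45, 2.29 and 1.75 CPM against 0.225, 0.205 and 0.281 CPM (-3.16, SE 0.31, adjusted p = 0.00266). Hoxb9 had 41 reads in iBAT and none in scBAT, at least 14.3-fold lower against a floor of 3 reads over the depot. At these low counts, leaving out a library ended calls, of Hoxb7 without iBAT library 1 or 2, of Hoxb9 also without scBAT library 2, and of Hoxb8 also without scBAT library 1 or 2, with adjusted p up to 0.165.

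In Hoxd, 1 of 4 tested genes was called, Hoxd8, and it was higher in scBAT (background 0.941% higher). Hoxd8 was at 10.1, 8.31 and 8.12 CPM in iBAT and 17.3, 19.9 and 18.4 CPM in scBAT, without overlap (log2 difference 1.07, SE 0.12, adjusted p = 0.00489, and 0.0666 without iBAT library 2). Hoxd3 was at 1.06, 1.09 and 0.994 CPM against 1.91, 3.19 and 2.53 CPM and was not called (1.28, SE 0.26, adjusted p = 0.0651). Hoxd4, whose span overlaps that of Hoxd3, and Hoxd9 were not called either. They differed by 0.27 (SE 0.18, adjusted p = 0.598) and -0.11 (SE 0.24, adjusted p = 0.889), with overlap. The Hox cofactors of the Pbx, Meis and Pknox families gave no call by edgeR, limma-voom or DESeq2 among 8 tested genes. Of these, 1 had an unadjusted p below 0.05 in edgeR, against 1637 of all 13502 tested genes. Summed levels of the Hoxc cluster were 57.6 ± 2.88 CPM in iBAT and 6.65 ± 1.55 CPM in scBAT (SD, n = 3).

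**Figure D4:**
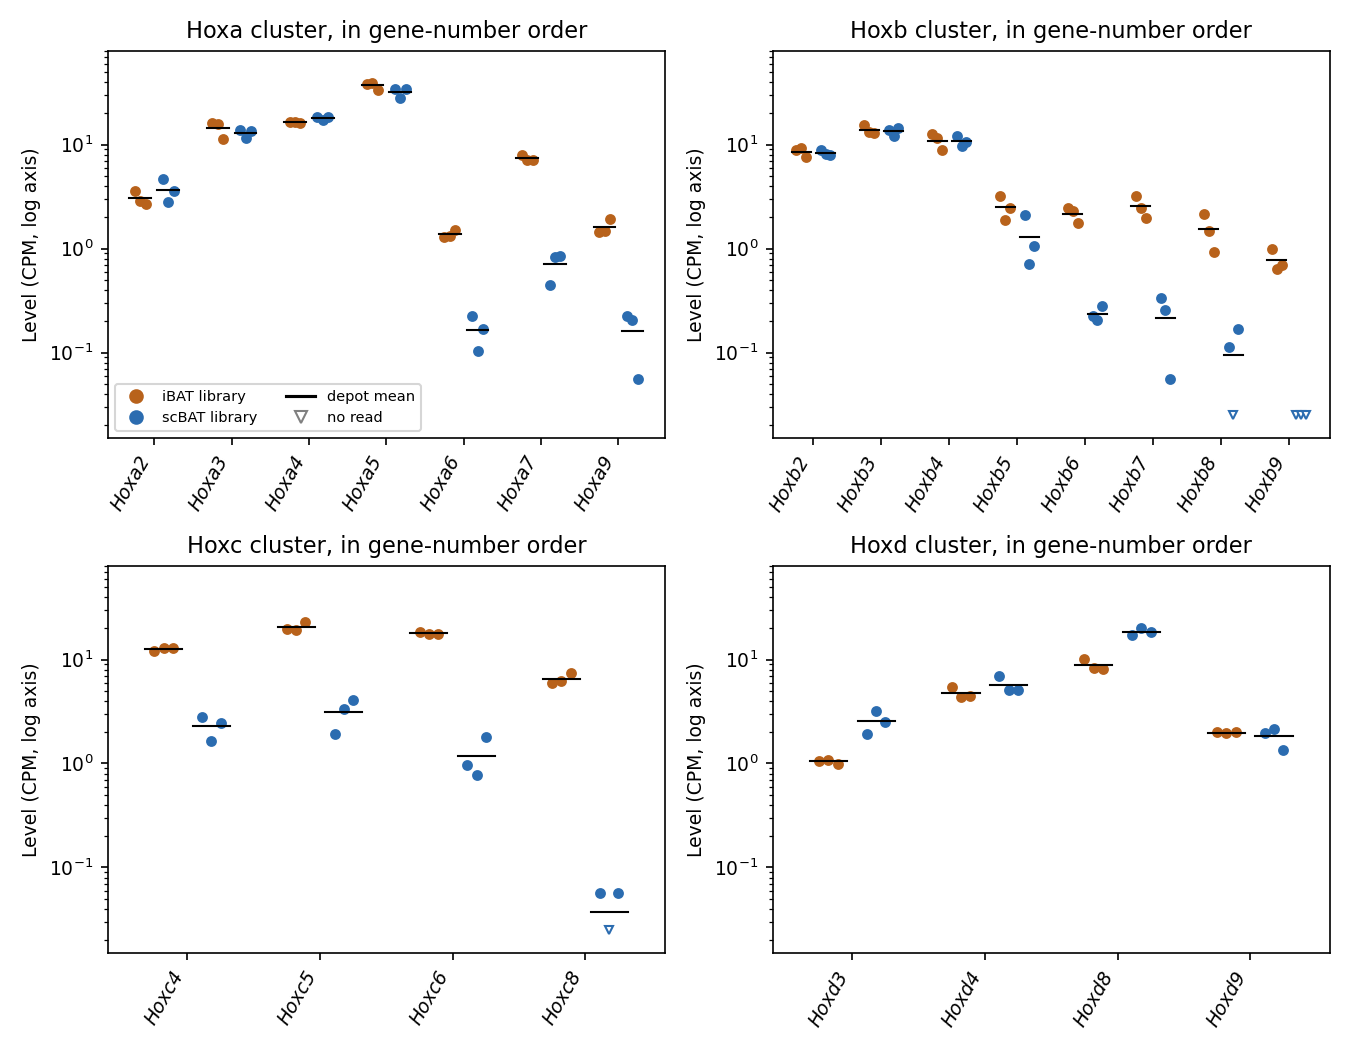
Levels of tested Hox genes (CPM, log axis) are shown in gene-number order for each cluster, with iBAT libraries in orange, scBAT libraries in blue and open triangles for libraries with no read. In Hoxa and Hoxb the depots part from gene 6 on, in Hoxc at each tested gene, and in Hoxd the scBAT libraries lie above iBAT at Hoxd8.

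Of the remaining genes lower in scBAT, Bmp5, a bone morphogenetic protein, was at 2.34, 4.18 and 3.33 CPM in iBAT against 1.01, 0.719 and 0.844 CPM in scBAT (log2 difference -1.93, SE 0.29, adjusted p = 0.0183). Acsm3, a mitochondrial medium-chain acyl-CoA synthetase, was among the more abundant of them, at 267, 287 and 280 CPM against 164, 169 and 185 CPM (-0.68, SE 0.07, adjusted p = 0.00266). Both sets of libraries were apart. Pclo, a presynaptic scaffold protein, Sh3gl3, an endophilin, and Tfr2, a transferrin receptor, differed by -2.32, -2.03 and -2.10. The call of Bmp5 was lost without iBAT library 2, scBAT library 2 or scBAT library 3, with adjusted p up to 0.137. That of Pclo was lost without iBAT library 2 or scBAT library 2 (up to 0.106), that of Sh3gl3 without any of iBAT libraries 1 and 2 and scBAT libraries 1 and 2 (up to 0.188), and that of Tfr2 without any of the 6 libraries (up to 0.163). The 3 called genes with predicted-model names were named after their values were seen. 4933436C20Rik, the noncoding RNA now called Crnde, was at 2.45, 2.98 and 3.62 CPM against 0.507, 0.616 and 0.394 CPM (-2.55, SE 0.28, adjusted p = 0.00434, and 0.0545 without iBAT library 2). Irx5, which starts next to it, was not called (-1.18, SE 0.33, adjusted p = 0.194). A530050N04Rik, a noncoding RNA now called Lncbate10, was lower, with a difference of -0.92 (SE 0.08, adjusted p = 0.00156). On the scale of 12 libraries it averaged 90.9 CPM in iBAT, 48.1 CPM in scBAT, 0.130 CPM in iWAT and 0.823 CPM in eWAT. E330017L17Rik was higher by 2.90 (SE 0.36, adjusted p = 0.00698), a call lost without iBAT library 1 or 2 (up to 0.0765).

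Macrophage genes were the marker list with the most calls. Of 11 tested macrophage markers, 8 were higher in scBAT (background 0.941% higher) and none lower, with a median difference of 0.84. The complement genes C1qa, C1qb and C1qc, the mannose receptor Mrc1, the scavenger receptor Cd163, the growth factor receptor Csf1r, the integrin Itgam and the lysozyme Lyz2 were called, the last pair named after their values were seen. Mrc1 stood at 19.9, 20.7 and 23.7 CPM in iBAT against 40.2, 45.4 and 37.8 CPM in scBAT (0.94, SE 0.10, adjusted p = 0.00414). C1qc was at 15.7, 17.9 and 20.9 CPM against 34.6, 37.2 and 35.4 CPM (0.98, SE 0.11, adjusted p = 0.00452). Every scBAT library was above every iBAT library for both. Cd68 and Fcgr1 were among those not called. Fcna, a ficolin, and Timd4 and Cd209f, receptors of resident macrophages, were higher by 2.03, 1.87 and 1.87. The number of markers called was 0 without iBAT library 2, 5 without iBAT library 1, 5 without scBAT library 2 and 0 with scBAT library 3 alone, where their median difference was 0.74. Mrc1 then had an adjusted p of 0.0603 without iBAT library 2. Fcna lost its call without iBAT library 2 (0.0792), Timd4 without iBAT library 1 or 2 or scBAT library 2 (up to 0.15), and Cd209f without iBAT library 2 or any scBAT library (up to 0.142). On the scale of 12 libraries, Mrc1 averaged 110 CPM in iWAT and 153 CPM in eWAT.

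Matrix and progenitor genes were called in smaller shares. Of 24 tested fibrillar collagen and matrix genes, Fbn1, Dcn, Fn1, Col14a1 and Mfap5 were higher (background 0.941% higher) and none was lower. The median difference of the list was 0.45. Fbn1, which encodes the microfibril protein fibrillin 1, was at 27.8, 28.5 and 30.5 CPM in iBAT against 58.4, 60.4 and 60.4 CPM in scBAT (1.05, SE 0.07, adjusted p = 0.00054). Fn1, encoding fibronectin, was at 46.9, 44.5 and 61.1 CPM against 95.8, 114 and 108 CPM (1.06, SE 0.13, adjusted p = 0.00988). The most used collagens, Col1a1 and Col3a1, were not called (0.61, SE 0.20, adjusted p = 0.307, and 0.50, SE 0.15, adjusted p = 0.258), although their libraries did not overlap. DESeq2 called 12 of the list higher, against 389 of the 14616 genes it tested. Without iBAT library 1, 2 or 3 or scBAT library 2 the list had 2, 1, 11 and 2 calls. Fn1 was not called without iBAT library 1, iBAT library 2 or scBAT library 2 (adjusted p up to 0.0735).

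Of 15 tested adipose progenitor genes, Dpp4, Pi16 and Pdgfra were higher (background 0.941% higher) and none lower, with a median of 0.34. Dpp4 and Pi16 mark fibroblast-like cells of the adipose interstitium. Dpp4 was at 2.39, 2.46 and 3.68 CPM in iBAT against 15.5, 16.3 and 11.7 CPM in scBAT (2.35, SE 0.21, adjusted p = 0.0019), well apart. Pi16 was at 19.9, 24.7 and 35.2 CPM against 81.6, 83.9 and 99.7 CPM (1.73, SE 0.21, adjusted p = 0.022). Pdgfra, the general receptor of such cells, differed by only 0.49 (SE 0.07, adjusted p = 0.021). Without iBAT library 2 the list had 1 call, Dpp4. It also had 1 without scBAT library 1 or scBAT library 2 and 2 without iBAT library 1. Adjusted p reached 0.158 for Pi16 and 0.143 for Pdgfra in these fits. DESeq2 called 5 of the list higher and 1 lower. Of 25 tested FGF, IGF and retinoid genes, Aldh1a3, Fgf10, Igfbp5 and Igfbp6 were higher (background 0.941% higher). The count fell to 1 without iBAT library 2 or scBAT library 2 and to 2 without iBAT library 1.

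Summed macrophage markers were 223 to 311 CPM in iBAT and 397 to 454 CPM in scBAT, and summed blood endothelium markers 1403 to 1663 CPM and 1219 to 1385 CPM. Of 12 tested endothelial genes none was called by edgeR, limma-voom or DESeq2, and the median difference was -0.25. All 12 had a negative difference, from -0.64 to -0.08. Of them, 4 were lower without overlap, against 7.68% of all tested genes. At an unadjusted p below 0.05 in edgeR 6 were lower, against 1637 of all 13502 tested genes in either direction. Of 6 tested mast cell and neutrophil markers, the mast cell proteases Cpa3 and Tpsb2 were called higher (background 0.941% higher) and none lower. Called or not, 3 of the 6 were higher and 2 lower without overlap, against 9.79% and 7.68% of all tested genes. Cpa3 was at 0.390 to 0.687 CPM in iBAT against 1.58 to 2.0 CPM in scBAT. Tpsb2 was at 0.111 to 0.409 CPM against 1.29 to 1.39 CPM. Without iBAT library 3 only 1 of Cpa3 and Tpsb2 was called, and without any other library none. Salivary, muscle and epithelial markers varied between scBAT libraries beside all these lists, and their part in the differences was not tested.

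**Figure D5:**
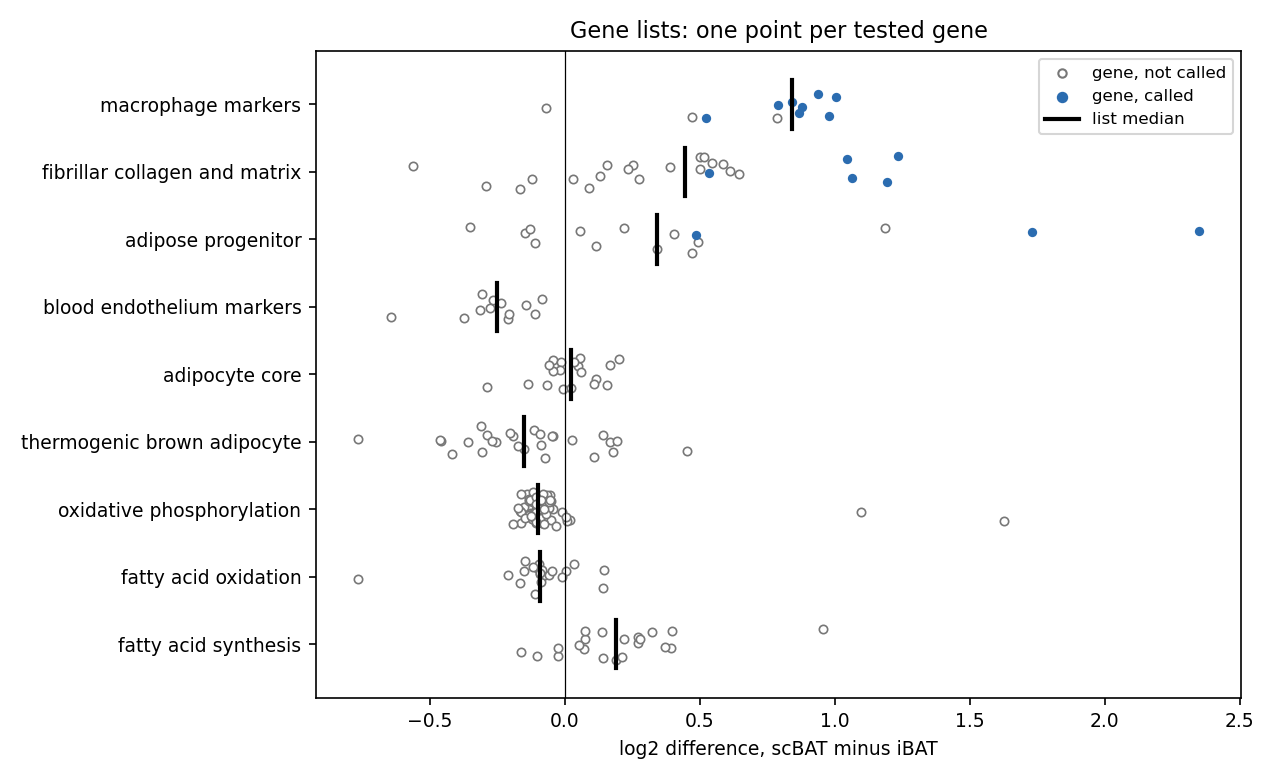
Each point is a tested gene of a list, placed by its log2 difference of scBAT minus iBAT, with filled points for called genes and a black bar for the list median. Macrophage, matrix and progenitor lists hold the called genes, while thermogenic, oxidative and lipid lists hold none.

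The listed heat-making genes gave no call in edgeR. Called genes outside the list, such as A530050N04Rik, are not covered by that statement. Ucp1, the uncoupling protein, was at 2125, 2154 and 1623 CPM in iBAT against 1767, 1429.9 and 2128 CPM in scBAT, with overlap (log2 difference -0.15, SE 0.17, adjusted p = 0.77). Dio2, which makes active thyroid hormone in the cell, and Prdm16, a regulator of brown fat identity, had differences of 0.17 (SE 0.28, adjusted p = 0.859) and 0.45 (SE 0.30, adjusted p = 0.607). Of 27 tested thermogenic genes, edgeR and limma-voom called none, and the median was -0.15. DESeq2 called 3 lower, against 79 of the 14616 genes it tested. At an unadjusted p below 0.05 in edgeR 7 were lower, against 1637 of all 13502 tested genes in either direction. Kcnk3, a potassium channel of brown adipocytes, was lower without overlap, at 667, 655 and 639 CPM against 519, 539 and 571 CPM, and was not called (-0.27, SE 0.06, adjusted p = 0.104).

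The lists of fuel use genes were likewise without a call in edgeR and limma-voom. Acsm3, called lower in scBAT as given above, is on none of these lists. Of 73 tested oxidative phosphorylation genes 5 had a positive difference and the median was -0.10, which became -0.00055 with scBAT library 3 alone. DESeq2 called 1 higher. At an unadjusted p below 0.05 in edgeR 1 was higher, against 1637 of all 13502 tested genes in either direction. The 21 tested fatty acid oxidation genes had a median of -0.09, with none called by DESeq2 and 2 lower at an unadjusted p below 0.05. Among 21 tested fatty acid synthesis and elongation genes, 17 had a positive difference, the median was 0.19, 5 were higher at an unadjusted p below 0.05 and DESeq2 called 1. Fasn, the fatty acid synthase, was at 12986, 13033 and 14186 CPM in iBAT against 15009.5, 16964 and 14905 CPM in scBAT (0.22, SE 0.08, adjusted p = 0.297), without overlap. Adipoq, the adiponectin gene, differed by 0.05 (SE 0.08, adjusted p = 0.854), and Lep, the leptin gene, by 0.62 (SE 0.48, adjusted p = 0.669), its libraries overlapping.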

How the data were processed

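The deposited table holds raw counts, whole numbers of reads per gene, which the authors left without normalization. Per the submitters' processing notes the genome build was mm10 and the tools included the aligner STAR (2.4.2a) and, for counting reads, HTSeq (0.6.1p1). The annotation and the strand setting are not given in the sources used here. Per the labels' protocols, total RNA went into TruSeq libraries.

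From the table, the 6 brown fat libraries were fitted alone in R 4.3.3 with edgeR 4.0.16 (filterByExpr, TMM scaling, robust quasi-likelihood F test, two-sided, a mean per depot, threshold 0.05). SE is the log2 difference divided by the square root of F. Alternatives used limma 3.58.1 and DESeq2 1.42.0 and other scalings, filters and samples. Named genes were the 15 largest differences at 2 CPM or more, the 8 smallest p per direction, list members and a fixed set; neighbours and uncalled list members beyond these were chosen after their values were seen. Members and lists were chosen with earlier results of these data known. On simulated counts the error rate was held with the fitted trend of spread. With the spread estimated for each gene, the share of false calls over all calls exceeded the threshold. False calls were counted but not split by the spread of the genes. Intervals and floors cover counting error only. Positions come from GENCODE M21 and RefSeq. Some tested genes are not reported here.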

Additional observations from a re-analysis of the deposited data

How the results depend on the processing

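Against 154 calls (127 higher, 27 lower), the 12-library fit gave 49 (35 and 14), DESeq2 468 (389 and 79), and a minimum of 2-fold 96 (76 and 20). Without a filter on low counts 41 genes were lower, and with a filter of 5 CPM 13 were. Leaving out a library in turn gave 35 to 241 calls, 24 to 215 higher and 11 to 33 lower. Settings chosen after seeing the data gave 32 calls (23 and 9) with scBAT library 3 alone, where it is assumed to vary like iBAT, and 258 (227 and 31) without both libraries numbered 3. Fewer samples enter the fits without a library. Calls fell to 35 without iBAT library 2 and rose to 241 without scBAT library 3. The cause of the change was not tested for any setting. DESeq2 size factors in edgeR gave 154 calls, upper quartile scaling 157, limma-voom 168 and a non-robust fit 150. No called gene changed direction under any setting. Under every planned setting that tested them, 10 higher genes (Aebp1, Akr1c13, Clec10a, Dact2, Epha3, Lhx1, Nrn1, Rsrc1, Shox2 and Tbx1) and 9 lower genes (Hoxa7, Hoxb6, Hoxc4, Hoxc5, Hoxc6, Hoxc8, Mira, Zic1 and Zic4) remained called.

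Same-numbered libraries of the depots had deviation correlations of 0.0759, -0.0862 and -0.187. These cannot decide whether a number marks a shared animal. The deviations are from a mean of few libraries, whose salivary and muscle content varied, and the labels do not say. A replicate block gave 156 calls (122 and 34), with 115 of the 154 among them, and iBAT library 3 deviated most like scBAT library 2 (0.273). At this depth Hoxb9 had 41 reads in iBAT and none in scBAT, so its ratio is given only as a bound.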

Other observations

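Called genes outside the lists, chosen after their values were seen, included more secreted and matrix-linked genes. Aebp1, a protein of collagen assembly, was at 11.2, 12.7 and 13.9 CPM in iBAT against 29.6, 30.6 and 32.6 CPM in scBAT (log2 difference 1.30, SE 0.10, adjusted p = 0.000916 in edgeR). Timp2, an inhibitor of matrix metalloproteinases, was higher by 1.11 (SE 0.10, adjusted p = 0.00239), and the complement gene C4b by 1.39 (SE 0.18, adjusted p = 0.025). Clec10a, a lectin receptor of macrophages, was at 4.01, 4.81 and 5.67 CPM against 14.4, 14.2 and 14.3 CPM (1.57, SE 0.14, adjusted p = 0.00229). Il33, an alarmin made by stromal cells, was higher by 1.59 (SE 0.21, adjusted p = 0.00988). The call of C4b was lost without iBAT library 1 or 2 or scBAT library 1 or 2 (adjusted p up to 0.154) and that of Il33 without iBAT library 1 or 2 (up to 0.104). Libraries of the depots did not overlap in any of them.

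Of 27 pairs of neighbouring called genes within 200000 bases, 26 differed in the same direction. Since 127 of the 154 called genes were higher, most pairs of called genes share a direction wherever they lie, and nothing is read from that count. The pairs include those of the Hox clusters, Zic1 with Zic4, Shox2 with Rsrc1, C1qa with C1qc, and Ccl6 with Ccl9. The exception was Ybx2, with a log2 difference of -0.52, beside Mgl2, with 0.75, and both calls were lost without iBAT library 1 or 2 or scBAT library 2 or 3, and that of Mgl2 also without scBAT library 1 (adjusted p up to 0.175 and 0.143). Several of these pairs overlap or belong to one gene family. Myh7, the slow muscle myosin, had 0.779, 2.35 and 10.1 CPM in iBAT against 0.0563, 0.154 and 0.113 CPM in scBAT and was not called (adjusted p = 0.231 in edgeR), whereas 17 of 19 tested skeletal muscle markers had a positive difference.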
